A study of Mus musculus with 6 samples.

Results

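The 10 genes H2-K1, H2-D1, B2m, Tap1, Tap2, Tapbp, Psmb8, Psmb9, Psme1 and Psme2 encode the core of the machinery that displays peptides on MHC class I molecules. They were taken by symbol from the deposited table of 55487 genes, where each of the 10 had exactly 1 row. All 10 passed the filter on low counts that left 16962 genes for testing. RNA came from MEFs, wild-type fibroblasts cultured from mouse embryos, at passage 6 (P6, labelled senescent) and at passage 1 (P1, labelled non-senescent), where each passage replates the cells. Each of the 2 passages had 1 library of cells given 20 µM α-amyrin, 1 of cells given 20 µM β-amyrin and 1 of cells given vehicle, all for 3 days. There were thus 6 libraries and no replicate of a condition. The amyrins are isomeric plant triterpene alcohols of the ursane (α) and oleanane (β) type, whose skeletons differ in where a methyl group sits on ring E. The labels name neither the mouse strain nor the embryos behind a library, and do not say that P6 was grown on from P1. A difference between passages therefore cannot be told apart from a difference between isolates.

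In the class I pathway the proteasome cuts proteins of the cytosol into peptides. The subunits Psmb8 and Psmb9 replace constitutive catalytic subunits to form the immunoproteasome, and Psme1 and Psme2 together build the PA28 cap that opens the proteasome core. The Tap1-Tap2 transporter carries peptides into the endoplasmic reticulum, and tapasin, the product of Tapbp, holds empty class I molecules beside it. A heavy chain (H2-K1 or H2-D1) joined to the light chain B2m then takes the peptide to the cell surface, where CD8 T cells read it. Class I molecules are found on most nucleated cells, and genes of the pathway are known as targets of interferons. Some of them, but not all, are also known as targets of the transactivator Nlrc5.

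Total counts ran from 18798418 to 25440191 in the P6 libraries and from 25077506 to 28752332 in the P1 libraries. Fibroblast markers summed to 22082 to 26674 CPM (read counts scaled so that libraries of different depth compare) at P6 and to 25530 to 30081 CPM at P1, and 1 of 12 rose and 9 fell at P6. Macrophage markers were also present. Of 20 listed, 19 passed the filter and all 19 rose at P6, with a median log2 fold change of 4.05. They included Lyz2 (lysozyme), Csf1r (the receptor of the macrophage growth factor) and Ptprc (CD45, found on blood cells). The summed macrophage markers stood at 5865 CPM with α-amyrin, 4270 with β-amyrin and 5805 with vehicle at P6, against 365, 50.5 and 414 CPM with α-amyrin, β-amyrin and vehicle at P1. Cd163 was the marker that did not pass the filter. Markers of T, B and NK cells summed to 0.319 to 0.597 CPM at P6 and 0.0402 to 0.153 CPM at P1, with Cd3e, Cd3d, Ncr1 and Nkg7 at 0 in all 6 libraries. Of 5 endothelial markers tested, 1 was higher and 4 were lower at P6. In RNA from a whole culture, more cells of a type and more RNA per cell cannot be told apart.

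The first comparison asked how the class I genes differed between P6 and P1 cells. Of the 10 genes, 8 rose at P6, none fell, and 2 were not called. The heavy chain H2-D1 rose most, 5.44-fold, followed by Psmb8 at 4.07-fold and H2-K1 at 3.05-fold. The 8 that rose were both heavy chains, the light chain, both transporter genes, tapasin and both immunoproteasome subunits, and the 2 that were not called were the PA28 genes Psme1 and Psme2. Genes were tested with the quasi-likelihood method of edgeR, with passage and treatment as additive terms over all 6 libraries and Benjamini-Hochberg adjusted p below 0.05 as the call. Much of the transcriptome differed between the P6 and P1 libraries. By this rule 30.0% of all genes tested were higher and 29.1% were lower at P6. The median log2 fold change was 1.04 over the 10 genes and 0.00 over all genes tested.

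**Figure D1:**
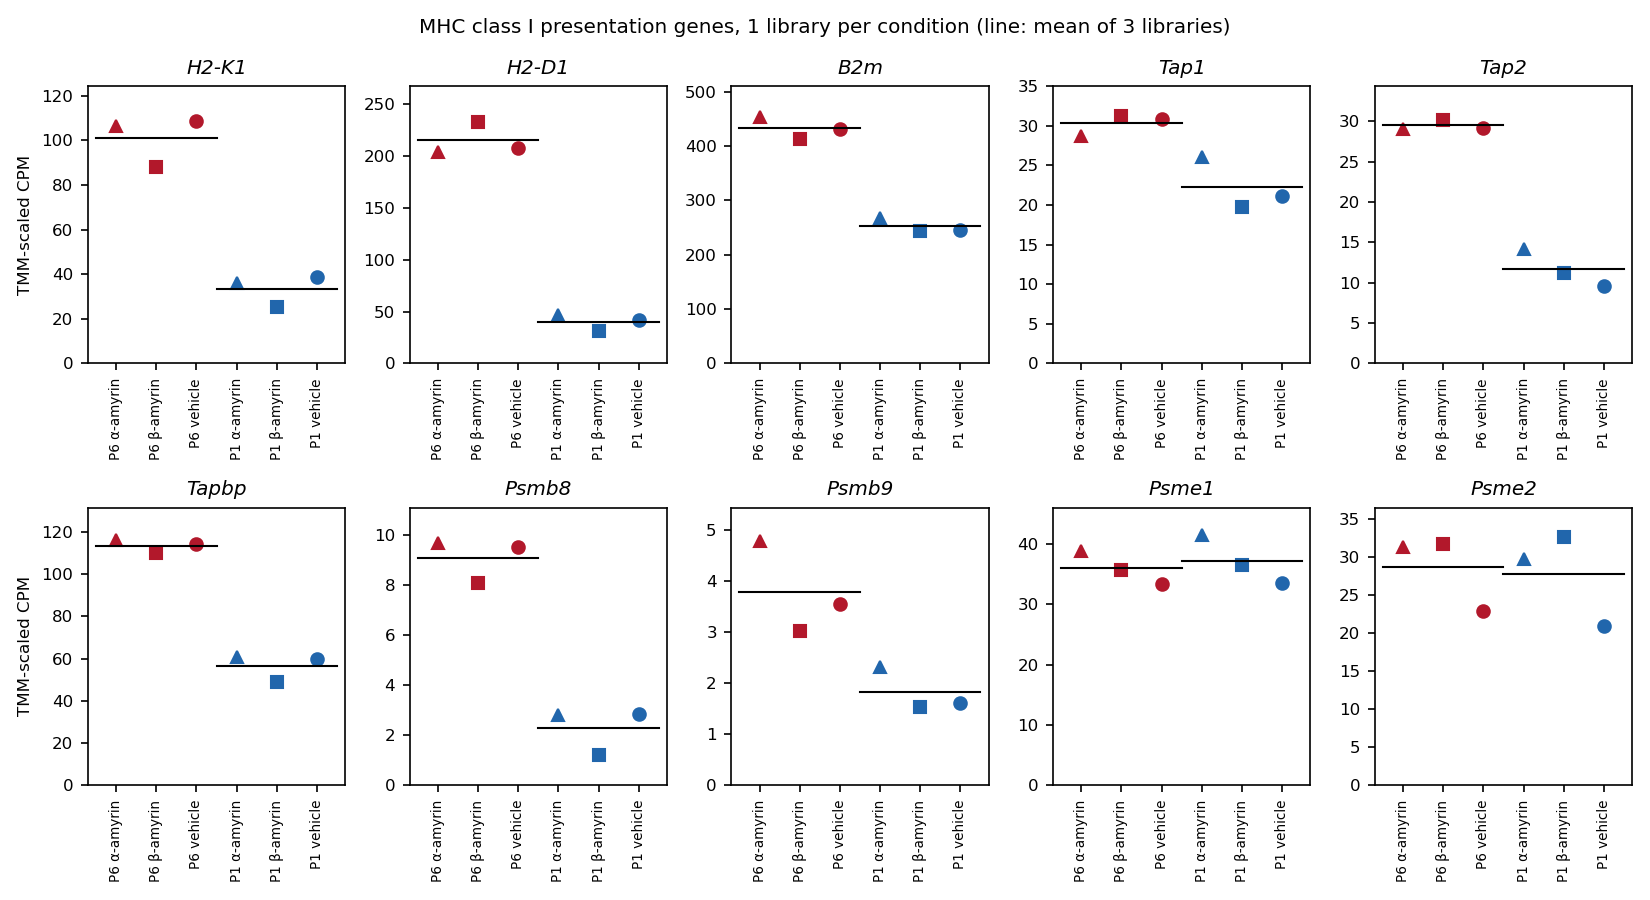
Each panel plots the TMM-scaled CPM of 1 gene in the 6 libraries on an axis from 0, with α-amyrin (triangles), β-amyrin (squares) and vehicle (circles) at P6 (red) and then at P1 (blue), and a line at the mean of the 3 libraries of a passage. In 8 panels every P6 point lies above every P1 point, and in the panels of Psme1 and Psme2 the passages overlap.

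The heavy chains bind the peptide and are what T cells see. H2-K1 (ENSMUSG00000061232, mm10, minus strand, chr17:33996017-34000347) had 106 CPM with α-amyrin, 88.0 with β-amyrin and 109 with vehicle at P6, against 36.2, 25.4 and 38.9 CPM with α-amyrin, β-amyrin and vehicle at P1. All 3 P6 libraries were above all 3 P1 libraries, with β-amyrin lowest at each passage. The mean was 101 ± 11.4 CPM at P6 and 33.5 ± 7.13 CPM at P1 (SD, n = 3 each, across treatments), and the log2 fold change was 1.61 ± 0.07 (SE; edgeR, adjusted p = 7.67e-06). H2-D1 (ENSMUSG00000073411, plus strand, chr17:35262730-35267499) had 204 CPM with α-amyrin, 233 with β-amyrin and 207 with vehicle at P6, against 46.9, 30.8 and 41.8 CPM with α-amyrin, β-amyrin and vehicle at P1. The groups did not overlap, and β-amyrin gave the highest P6 value but the lowest P1 value. Its log2 fold change was 2.44 ± 0.14 (SE; edgeR, adjusted p = 2.14e-05). Over all genes tested, 32.5% had their 3 P6 libraries above their 3 P1 libraries and 32.2% had them below.

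The 2 heavy chain genes moved together with passage, and the start of each carries a like stretch of sequence, shown from its κB element (enhancer A) to the nearest CCAAT box. The capitals mark these 2 motifs, the κB element being the first 10 bases and the CCAAT box being read as ATTGG because it lies on the opposite strand. The sequences are from RefSeq (GRCm38.p6), 5′ to 3′ on the strand of the gene.
H2-K1, minus strand, chr17:34000359-34000458: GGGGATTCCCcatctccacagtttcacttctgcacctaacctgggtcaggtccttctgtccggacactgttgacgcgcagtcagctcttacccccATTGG
H2-D1, plus strand, chr17:35262923-35263022: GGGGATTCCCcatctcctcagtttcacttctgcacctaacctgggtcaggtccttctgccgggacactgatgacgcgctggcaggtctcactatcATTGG
Of the 100 bases, 89 were identical without a gap, and the longest identical run was 40 bases. The H2-K1 stretch spans positions -111 to -12 from a RefSeq start site and the H2-D1 stretch positions -171 to -72. These 10 κB letters were found in 35 of 32851 RefSeq promoter windows (0.107%, from 250 bases before to 50 bases after a start, both strands), and among the class I genes in H2-K1 and H2-D1. CCAAT was in 37.4% of windows and in those of 6 of the 9 class I genes that have an entry. A match describes the letters and is not evidence of a bound factor.

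B2m (ENSMUSG00000060802, plus strand, chr2:122147686-122153083), the light chain shared by all class I molecules, lies outside the MHC. It had 454 CPM with α-amyrin, 413 with β-amyrin and 431 with vehicle at P6, against 269, 244 and 245 CPM with α-amyrin, β-amyrin and vehicle at P1. The passages did not overlap, and the spread within a passage was small. The mean was 433 ± 20.4 CPM at P6 and 253 ± 13.9 CPM at P1 (SD, n = 3 each), a log2 fold change of 0.78 ± 0.04 (SE; edgeR, adjusted p = 1.56e-05). The RefSeq promoter of B2m held the core of an interferon-stimulated response element (ISRE, searched as GAAA, any 2 bases and GAAA), which 3.44% of windows hold, and a CCAAT box. The stretch from one to the other is shown with both in capitals, the CCAAT box again as ATTGG.
B2m, plus strand, GRCm38.p6, chr2:122147548-122147638: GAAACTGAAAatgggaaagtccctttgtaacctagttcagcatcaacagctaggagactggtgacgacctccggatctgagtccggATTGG

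The transporter genes differed in how far they rose. Tap2 (ENSMUSG00000024339, plus strand, chr17:34203527-34216321) had 29.0 CPM with α-amyrin, 30.2 with β-amyrin and 29.1 with vehicle at P6, against 14.2, 11.3 and 9.63 CPM with α-amyrin, β-amyrin and vehicle at P1. The P6 libraries were close to each other and all above P1, with a log2 fold change of 1.34 ± 0.11 (SE; edgeR, adjusted p = 8.94e-05). Tap1 (ENSMUSG00000037321, plus strand, chr17:34187553-34197225) had 28.8 CPM with α-amyrin, 31.3 with β-amyrin and 30.9 with vehicle at P6, against 26.0, 19.7 and 21.2 CPM with α-amyrin, β-amyrin and vehicle at P1. The groups did not overlap, with the P1 α-amyrin library nearest to the P6 values. The log2 fold change of Tap1 was 0.45 ± 0.10 (SE; edgeR, adjusted p = 0.00867), the smallest of the 8 that rose. The call of Tap1 was lost when the P6 vehicle library (log2 fold change 0.40, adjusted p = 0.0535) or the P1 vehicle library (0.39, adjusted p = 0.0544) was left out.

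Tapbp (ENSMUSG00000024308, plus strand, chr17:33915899-33929292), which encodes the tapasin that bridges the transporter and the empty heavy chain, had 116 CPM with α-amyrin, 110 with β-amyrin and 114 with vehicle at P6. At P1 it had 60.7 CPM with α-amyrin, 48.7 with β-amyrin and 59.6 with vehicle. Every P6 library was above every P1 library, and the log2 fold change was 1.02 ± 0.06 (SE; edgeR, adjusted p = 2.58e-05).

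The immunoproteasome subunits had few reads. Psmb8 (ENSMUSG00000024338, plus strand, chr17:34197721-34201454) had 182 reads with α-amyrin, 203 with β-amyrin and 225 with vehicle at P6, against 82, 30 and 74 reads with α-amyrin, β-amyrin and vehicle at P1. In CPM this was 9.66, 8.08 and 9.52 at P6 against 2.79, 1.21 and 2.84 at P1, in that order of treatments, and the groups did not overlap. Its log2 fold change was 2.02 ± 0.20 (SE; edgeR, adjusted p = 0.000174). Psmb9 (ENSMUSG00000096727, minus strand, chr17:34181987-34187764) had 90 reads with α-amyrin, 76 with β-amyrin and 84 with vehicle at P6, against 68, 38 and 42 reads with α-amyrin, β-amyrin and vehicle at P1. It also rose without overlap in CPM, by a log2 fold change of 1.06 ± 0.17 (SE; edgeR, adjusted p = 0.00143). Both errors are wider than those of the other genes that rose, as the plot of passage changes shows.

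**Figure D2:**
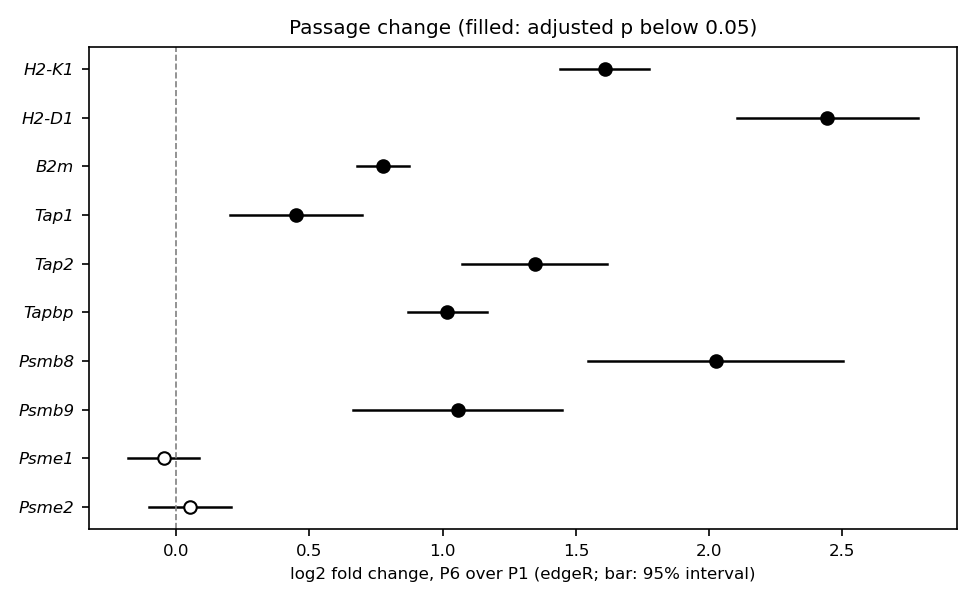
The log2 fold change of P6 over P1 is plotted for each of the 10 genes, with points at the edgeR estimate, bars for the 95% interval, and filled points where the adjusted p was below 0.05. The intervals of 8 genes lie above 0 and those of Psme1 and Psme2 cross 0.

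Psmb8 was the class I gene with a GAS element (interferon-γ activated sequence, searched as TTCNNNGAA) in its RefSeq promoter window, a motif found in 8.3% of all windows. The element is shown in capitals with 20 bases on each side. Tap1 and Psmb9 start close together on opposite strands, and the 225 bases between their RefSeq starts are shown on the plus strand, with a CCAAT box and a GC box (GGGCGG, read here as CCGCCC, in 35.7% of windows) in capitals.
Psmb8, plus strand, GRCm38.p6, chr17:34198078-34198126: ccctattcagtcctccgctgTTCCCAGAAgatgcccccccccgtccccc
Psmb9 to Tap1, plus strand, GRCm38.p6, chr17:34187331-34187555: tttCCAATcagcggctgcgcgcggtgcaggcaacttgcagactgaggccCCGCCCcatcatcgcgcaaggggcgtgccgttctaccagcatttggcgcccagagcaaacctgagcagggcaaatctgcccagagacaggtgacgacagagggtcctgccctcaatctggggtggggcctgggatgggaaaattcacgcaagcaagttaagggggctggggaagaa
Although this pair shares the stretch between its starts, the log2 fold change was 1.06 for Psmb9 and 0.45 for Tap1.

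The PA28 genes were not called. Psme1 (ENSMUSG00000022216, plus strand, chr14:55578123-55581529) had 39.0 CPM with α-amyrin, 35.7 with β-amyrin and 33.3 with vehicle at P6, against 41.5, 36.5 and 33.6 CPM with α-amyrin, β-amyrin and vehicle at P1. The passages overlapped and the order of treatments was the same at both. The log2 fold change was -0.05 with a 95% interval of -0.18 to 0.09 (edgeR, adjusted p = 0.51). Psme2 (ENSMUSG00000079197, minus strand, chr14:55587441-55591113) had 31.4 CPM with α-amyrin, 31.7 with β-amyrin and 22.9 with vehicle at P6, against 29.8, 32.6 and 20.9 CPM with α-amyrin, β-amyrin and vehicle at P1. The passages overlapped here too, and vehicle was lowest at each. Its log2 fold change was 0.05 with a 95% interval of -0.10 to 0.21 (edgeR, adjusted p = 0.522). The intervals leave out a rise of the size seen in Tap1, the smallest among the genes that rose. The Psme1 promoter window held an ISRE core by the letters searched, as that of B2m did. This search takes 1 fixed pattern, so an element with other letters in the window of another class I gene would be missed.

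The genes that rose and those that were not called lie on different chromosomes. All 7 class I genes on chromosome 17 rose, as did B2m on chromosome 2, and neither of the 2 on chromosome 14, which lie 5911 bases apart, was called. In the 1351.6 kb of chromosome 17 from Tapbp to H2-D1, 78 genes were tested, of which 31 (39.7%) rose and 13 fell. Without the 7 class I genes, 24 of 71 (33.8%) rose and 13 fell, with a median log2 fold change of 0.14.

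Levels can be compared between genes on the FPKM scale, which divides by gene length, as deposited by the authors. B2m had the highest level, with a mean of 531 FPKM at P6 and 313 FPKM at P1. Next at P6 were the heavy chains, with 83.8 FPKM for H2-D1 and 34.0 FPKM for H2-K1, against 15.7 and 11.4 FPKM at P1. H2-D1 stood at 2.51 ± 0.54 times H2-K1 at P6 and 1.38 ± 0.14 times at P1 (SD, n = 3 each). Tapbp averaged 31.4 FPKM at P6 and 15.6 FPKM at P1. Psme1 (16.5 and 17.0 FPKM at P6 and P1) and Psme2 (15.4 and 14.4 FPKM at P6 and P1) did not differ from each other beyond their spread. At P1 this also held for H2-D1, Tapbp and the PA28 genes, which all lay between 14.4 and 17.0 FPKM. The transporter genes were at 7.81 FPKM (Tap2) and 5.67 FPKM (Tap1) at P6, against 3.09 and 4.20 FPKM at P1. The ratio of Tap2 to Tap1 was 1.38 ± 0.05 at P6 and 0.732 ± 0.079 at P1 (SD, n = 3 each), so their order differed between the passages.

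Psmb8 and Psmb9 were the lowest of the 10 at both passages, with 2.73 and 0.652 FPKM at P6 against 0.695 and 0.174 FPKM at P1. The FPKM of Psmb9 did not follow its counts, with a P6 mean 3.74 times the P1 mean in FPKM and 2.08 times in CPM, and its ratio to Psmb6 carries that difference. Both genes were set beside the constitutive subunits whose places they take. Psmb8 stood at 0.0344 ± 0.0046 of the level of Psmb5 at P6 and at 0.00752 ± 0.0032 at P1, and Psmb9 at 0.0158 ± 0.0051 of the level of Psmb6 at P6 and 0.00335 ± 0.00098 at P1 (SD, n = 3 each). The third immunoproteasome gene, Psmb10, stood at 0.262 ± 0.028 of the level of Psmb7 at P6 and 0.174 ± 0.021 at P1. The passages did not overlap in this ratio. Psmb10 itself did overlap, at 6.85 to 8.27 FPKM at P6 and 5.95 to 7.69 FPKM at P1. Psmb7 was lower at P6, at 27.9 to 29.9 FPKM against 36.3 to 39.4 FPKM at P1. In all 6 libraries the FPKM of the constitutive subunit was above that of the inducible one for each of these 3 pairs.

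Beyond the 10 genes, lists of related genes were counted by the same edgeR test, against which the shares of all genes, 30.0% higher and 29.1% lower, can be read. Of 20 listed further class I heavy chains, 9 passed the filter, of which 5 rose and none fell, with a median log2 fold change of 0.70. H2-T23, the Qa-1 molecule recognised by NK receptors, rose by 2.23 ± 0.13 (SE, log2; edgeR, adjusted p = 2.2e-05), with 21.1 to 26.2 CPM at P6 and 3.54 to 6.87 CPM at P1. Fcgrt, the neonatal Fc receptor, rose by 0.93, H2-M3, which presents formylated peptides, by 1.26, and Mr1, which presents vitamin metabolites, by 0.75 (log2).

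Of 17 peptide loading and trimming partners tested, a list that holds chaperones of the endoplasmic reticulum, translocon genes and peptidases, 4 rose and 9 fell, with a median log2 fold change of -0.22. Erap1, the aminopeptidase that trims peptides in the endoplasmic reticulum, rose by 0.69 ± 0.05 (SE, log2; edgeR, adjusted p = 5.48e-05). The translocon genes Sec61b and Sec61a1 had log2 fold changes of -0.64 and -0.54, and Hspa5, a chaperone of the endoplasmic reticulum, of -0.51, all 3 called lower. The lectin chaperone Calr, part of the peptide loading complex and named after its value was seen, had a log2 fold change of -0.31 ± 0.04 (SE; edgeR, adjusted p = 0.000616).

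The constitutive proteasome moved opposite to Psmb8 and Psmb9. Of the 14 constitutive 20S subunits, none rose and 13 fell, with a median log2 fold change of -0.26. Psma7 had a log2 fold change of -0.40, Psmb4 of -0.39, Psmb7 of -0.37 and Psma3 of -0.32. Of 27 other genes for proteasome activators, assembly factors and 19S subunits, 1 rose and 20 fell, with a median of -0.25. Psme3, the PA28 subunit of the nucleus, had a log2 fold change of -0.39, and the assembly chaperone Psmg1 of -0.64. Psmb10 was not called, at 0.22 ± 0.09 (SE, log2; edgeR, adjusted p = 0.0627).

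**Figure D3:**
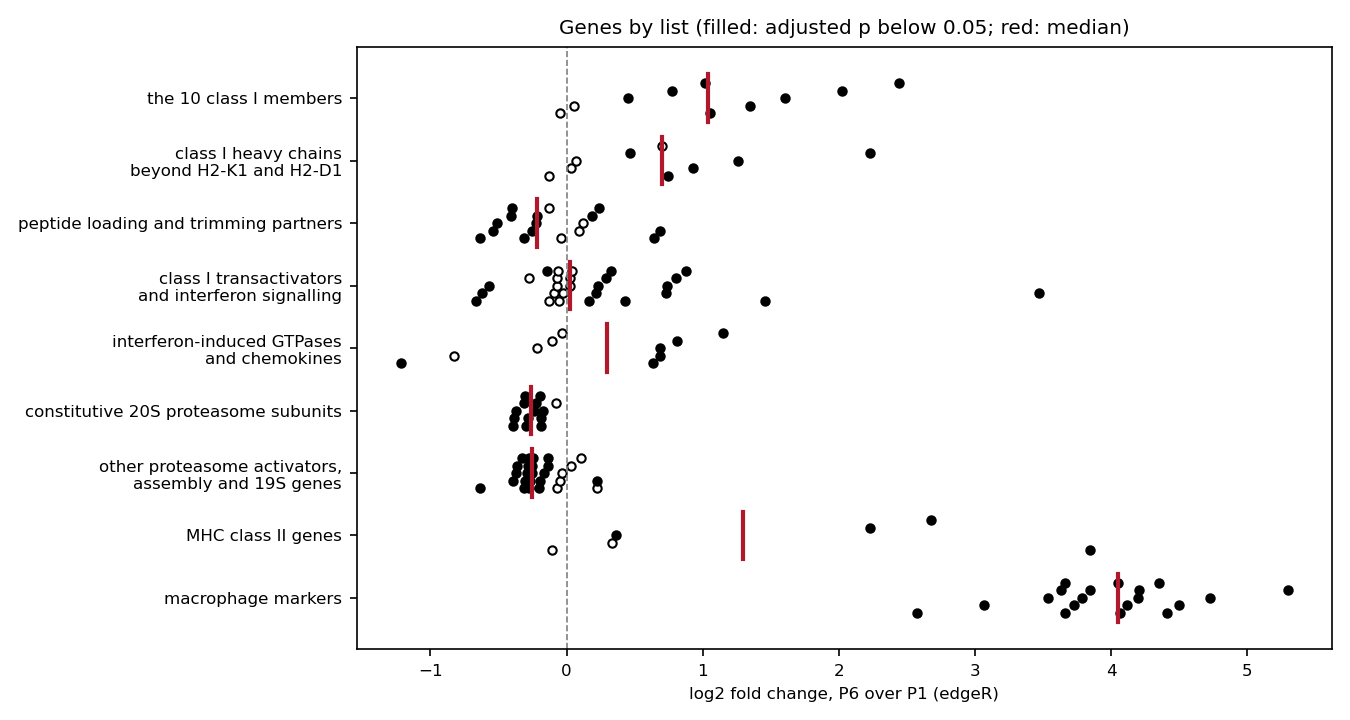
Each point is the log2 fold change of P6 over P1 (edgeR) of 1 tested gene, in rows for the 10 class I genes, 7 lists of related genes and the macrophage markers, filled where the adjusted p was below 0.05, with a red bar at the median of the row. The medians are 1.04 for the class I genes, 0.70 for further heavy chains, -0.26 for the constitutive 20S subunits and 4.05 for the macrophage markers.

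The regulators of class I genes were mixed. Of 27 transactivators and interferon signalling genes tested, 12 rose and 4 fell, with a median log2 fold change of 0.03. The count that fell was 2 when the P6 α-amyrin library or the P1 α-amyrin library was left out. Nlrc5, which drives class I promoters, had 4.83 CPM with α-amyrin, 5.85 with β-amyrin and 5.37 with vehicle at P6, against 2.24, 1.05 and 2.65 CPM with α-amyrin, β-amyrin and vehicle at P1. It was higher in all 3 P6 libraries, by 1.46 ± 0.28 (SE, log2; edgeR, adjusted p = 0.0037). Ifngr2, a chain of the interferon-γ receptor, rose by 0.88, the kinase Tyk2 by 0.74 and Irf8, a factor of myeloid cells, by 3.47 (log2), while Nfyc, a subunit of the CCAAT-binding factor NF-Y, had a log2 fold change of -0.67 and was called lower. The interferon factor Irf1 was not called, at -0.13 ± 0.09 (SE, log2; edgeR, adjusted p = 0.238).

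Other targets of interferon did not move as one with the class I genes. Of 10 interferon-induced GTPases and chemokines tested, 5 rose and 1 fell, with a median log2 fold change of 0.30. The GTPases Irgm1, Irgm2 and Tgtp1 had log2 fold changes of 0.68, 0.63 and 1.15, and the chemokine Cxcl10 of -1.22 (edgeR, adjusted p = 0.0133). These counts were uneven across libraries. Leaving out the P6 or P1 vehicle library left 2 that rose, and leaving out the P6 or P1 α-amyrin library left 3 that rose and 0 that fell. Without the P6 or P1 β-amyrin library, 2 fell.

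Of 11 listed genes of the class II pathway, which presents peptides on specialised cells such as macrophages, 6 passed the filter. H2-Aa and Cd74 were among those that did not pass. Of the 6 tested, 4 rose and none fell, with a median log2 fold change of 1.30. They were Ctss, a protease of that pathway also among the macrophage markers (3.84), H2-DMb1 (2.23), H2-Ab1 (2.68) and H2-DMa (0.37). Most were low or little changed. In single libraries, 1 of the 6 was at least 2-fold higher at P6 with at least 5 CPM, at each treatment. The shares of all genes by that rule were 5.60% to 5.72%. The class II transactivator Ciita was at 0.33 ± 0.34 (SE, log2; edgeR, adjusted p = 0.429).

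The macrophage markers moved in the direction of the class I genes, and their part in the class I difference was not tested. Their sum was 4270 CPM or more at P6 and 414 CPM or less at P1. Within P1 the marker sum was 50.5 CPM with β-amyrin, against 414 CPM with vehicle. In the same 2 libraries B2m was at 244 CPM with β-amyrin and 245 CPM with vehicle, Tapbp at 48.7 and 59.6 CPM, Tap2 at 11.3 and 9.63 CPM, H2-D1 at 30.8 and 41.8 CPM, H2-K1 at 25.4 and 38.9 CPM, and Psmb8 at 1.21 and 2.84 CPM. Tap1 was at 19.7 CPM with β-amyrin and 21.2 CPM with vehicle, Psmb9 at 1.53 and 1.61 CPM, Psme1 at 36.5 and 33.6 CPM, and Psme2 at 32.6 and 20.9 CPM. By log2 ratio of these 2 libraries, 7 of the 10 class I genes were lower with β-amyrin and 3 were higher, with a median of -0.09. Among all 16962 genes tested, 8436 were lower and 8511 were higher.

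The rise at P6 was seen at each treatment. Read as ratios of single libraries (log2 of CPM with a prior count of 2), 4 of the 10 genes were at least 2-fold higher at P6 with α-amyrin, 5 with β-amyrin and 4 with vehicle, counting genes with at least 5 CPM in 1 of the libraries. The shares of all genes by this rule were 5.72% with α-amyrin, 5.68% with β-amyrin and 5.60% with vehicle. H2-K1, H2-D1, Tap2 and Psmb8 met it at all 3 treatments and Tapbp with β-amyrin. H2-D1 had log2 ratios of 2.12 with α-amyrin, 2.92 with β-amyrin and 2.31 with vehicle. Tap1 had 0.14 with α-amyrin, 0.66 with β-amyrin and 0.54 with vehicle.

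The second question was whether either amyrin altered these genes. In the edgeR fit no class I gene was called with α-amyrin against vehicle, where 0.0295% of all genes (5) were called in either direction. At an unadjusted p below 0.05 there were 2, Psme1 and Psme2, among 1995 such genes in all. DESeq2 called 1 of the 10, and limma on the FPKM values called 0. Psme2 had a log2 fold change of 0.48 with a 95% interval of 0.29 to 0.67 (edgeR, adjusted p = 0.125), and Psme1 of 0.27 with an interval of 0.10 to 0.43 (edgeR, adjusted p = 0.256). Both were higher with α-amyrin at each passage. The log2 fold change of Psme2 was also 0.48 when the P6 or the P1 β-amyrin library was left out of the fit. This is no further check, because the additive fit takes the comparison from the α-amyrin and vehicle libraries. The other 8 genes had log2 fold changes between -0.07 (H2-K1) and 0.47 (Psmb9, interval -0.0050 to 0.94). The median of the 10 was 0.10, but it was -0.0092 without the P1 α-amyrin library and 0.32 without the P6 α-amyrin library.

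With β-amyrin against vehicle no class I gene was called by edgeR either, where 0.00590% of all genes (1) were called. At an unadjusted p below 0.05 there were 2, H2-K1 and Psme2, among 1739 such genes in all. DESeq2 called H2-K1 lower and Psme2 higher, and limma on the FPKM values called 0. H2-K1 was lower with β-amyrin at both passages, with a log2 fold change of -0.45 and a 95% interval of -0.65 to -0.25 (edgeR, adjusted p = 0.215). Psme2 was higher at both, at 0.55 with an interval of 0.37 to 0.74 (edgeR, adjusted p = 0.143). Without the P6 β-amyrin library, only the P1 library of β-amyrin carries the comparison. The log2 fold change was then -0.60 for H2-K1, -0.50 for H2-D1 and 0.62 for Psme2. The macrophage markers were lower with β-amyrin as well, with a median log2 ratio of -0.58 at P6 and -3.45 at P1. None of the 19 was called by edgeR, 11 had an unadjusted p below 0.05, and DESeq2 called 1. The median of the 10 class I genes was -0.07, but leaving out the β-amyrin library of P6 gave -0.16 and leaving out that of P1 gave 0.03.

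**Figure D4:**
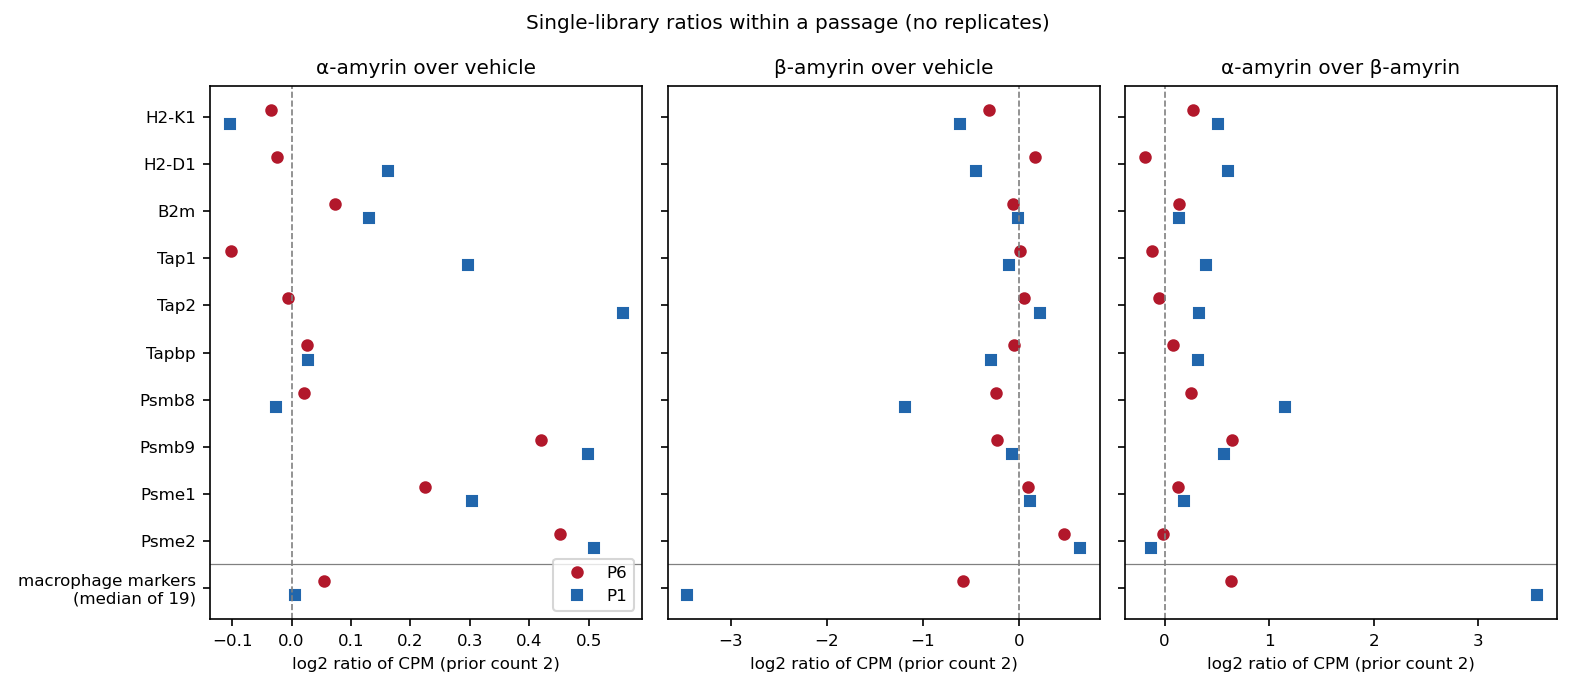
Log2 ratios of CPM between single libraries of 1 passage (prior count 2, no replicates) are plotted for the 10 class I genes and, in the bottom row, for the median of the 19 macrophage markers, with P6 as red circles and P1 as blue squares and a different scale in each panel. With β-amyrin the macrophage median is -0.58 at P6 and -3.45 at P1, while H2-K1 is -0.31 at P6 and -0.61 at P1.

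The isomers were compared directly at the same dose and time. In the edgeR contrast of α-amyrin minus β-amyrin no class I gene was called, where 0.0590% of all genes (10) were called. Neither DESeq2 nor limma on FPKM called any of the 10. At an unadjusted p below 0.05 there were 4 class I genes, among 1563 genes in all, each higher with α-amyrin. These were Psmb9 (log2 difference 0.63, 95% interval 0.16 to 1.11), H2-K1 (0.38, 0.18 to 0.58), Tapbp (0.19, 0.01 to 0.37) and B2m (0.14, 0.02 to 0.26), with adjusted p from 0.272 to 0.512. Without the P6 β-amyrin library, which leaves only the P1 library of β-amyrin, the log2 difference was 0.53 for H2-K1 and 0.56 for H2-D1. The interval of Psme2 was -0.26 to 0.11 and that of Tap2 -0.20 to 0.46, so the data do not show that the isomers act alike on these genes. The p-values of these 3 compound comparisons were adjusted over genes, not over the comparisons, which share libraries.

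A term for whether the response to an amyrin, with both isomers taken as 1 group, differed between P6 and P1 called 0 of the 10 genes and 0 of all genes in edgeR. No class I gene had an unadjusted p below 0.05, against 451 of all genes tested, and DESeq2 and limma called 0 of the 10. In single libraries H2-K1 with β-amyrin over vehicle was at -0.31 at P6 and -0.61 at P1. Psmb8 was at -0.23 at P6 and -1.18 at P1, where it had 30 reads with β-amyrin and 74 with vehicle.

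The higher values of Psme2 with the amyrins came with lower values of a near-identical copy. Of the 50-base windows in Psme2 transcripts, 59.3% also occur in Psme2b, so that reads can be counted for either gene. Psme2b had 19.5 CPM with α-amyrin, 15.8 with β-amyrin and 22.7 with vehicle at P6, against 22.1, 14.2 and 24.7 CPM with α-amyrin, β-amyrin and vehicle at P1. The order of treatments was the reverse of that of Psme2 at both passages. The sum of both genes was 50.9 CPM with α-amyrin, 47.5 with β-amyrin and 45.6 with vehicle at P6, against 51.9, 46.8 and 45.6 CPM with α-amyrin, β-amyrin and vehicle at P1. Psme2 made up 61.6% of the sum with α-amyrin, 66.8% with β-amyrin and 50.3% with vehicle at P6, and 57.5%, 69.7% and 45.9% with α-amyrin, β-amyrin and vehicle at P1. Refitted as 1 row, a step chosen after seeing the data, the sum had a log2 fold change of 0.17 with α-amyrin (edgeR, adjusted p = 0.376) and 0.04 with β-amyrin (edgeR, adjusted p = 0.851). How reads that match both genes were assigned is not stated, and its part in the Psme2 difference was not tested further.

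**Figure D5:**
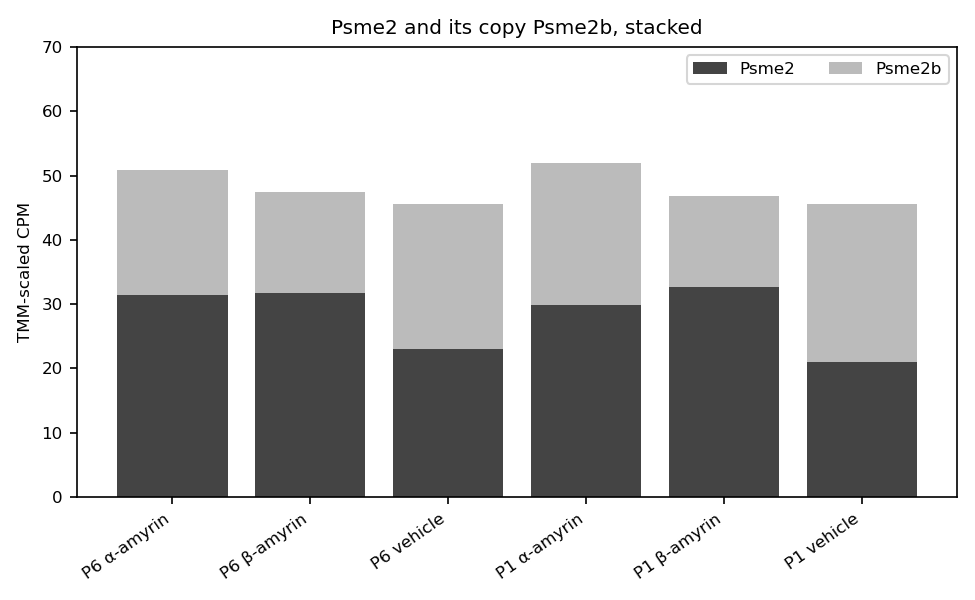
Bars from 0 show the TMM-scaled CPM of Psme2 (dark) and of its copy Psme2b (light) stacked on it, for α-amyrin, β-amyrin and vehicle at P6 and then at P1. The stacked height lies between 45.6 and 51.9 CPM in all 6 libraries, while the share of Psme2 runs from 45.9% to 69.7%.

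Sequence sharing was smaller for the other class I genes, at 0 windows for B2m and 5.83% to 21% for the other 8. H2-K1 shared 8.79% and H2-D1 14.3% of windows with other genes, including 109 windows that both heavy chains hold. Several gene models of the region also overlap. The Tap1 and Psmb9 models share 212 bases on opposite strands. The noncoding genes Gm15821 (within Tap2), Gm20496 (over parts of Tap2 and Psmb8) and Gm19412 (within Tapbp) lie antisense to class I genes, and had log2 fold changes of 1.40, 1.75 and 0.93 at P6 over P1, all called. Zbtb22, a zinc finger gene on the strand of Tapbp, overlaps the Tapbp model by 3422 bases, which strand cannot resolve. It had 496 to 718 reads at P6 and 583 to 719 reads at P1, with a log2 fold change of 0.26 (edgeR, adjusted p = 0.0302). Patl2 covers all 5398 bases of B2m on the opposite strand and had 0 reads in all 6 libraries. The kit keeps strand, but the sources used here do not say whether counting used it, and without strand the reads of such partners cannot be told apart.

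The mean profile of the 10 genes over the 6 libraries, each centred on its own mean log2 CPM, was nearest to that of Tapbp (Euclidean distance 0.17) and farthest from that of H2-D1 (1.71). Among 11584 other genes with at least 5 CPM on average, Arsa (0.132), Emc9 (0.140), B3gnt8 (0.143), Ctsa (0.144) and Tcta (0.145) had the smallest distances to it over these 6 libraries. The model of Emc9 overlaps that of Psme1 by 14 bases on the opposite strand.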

How the data were processed

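The values deposited by the authors are raw read counts per gene in whole numbers, per the file headers, and FPKM for the same genes, whose computation is not stated. RNA was selected by poly(A) and libraries were made with a directional kit, per the labels' protocols. The submitters' processing notes name FastQC 0.11.7 and Trimmomatic 0.38 (read checks and trimming), HISAT2 2.1.0 and SAMtools 1.9 (alignment to mm10) and featureCounts 1.6.3 (counting). These sources do not give their settings. There were 0 further per-sample columns.

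Counts were scaled by TMM and tested with the quasi-likelihood test of edgeR 4.0.16 in R 4.3.3 after filterByExpr with passage as the group. The additive fit had 2 residual and 4.83 prior degrees of freedom and a common biological coefficient of variation of 7.72%, so departures from additivity count as error. Errors are standard errors from this fit, and p-values are adjusted over all 16962 genes tested. With 1 library per condition, they measure only the spread among these libraries, which may be technical. Scripts were tested on simulated data. Alternatives used other scalings, no filter, DESeq2 1.42.0, limma 3.58.1 on log2(FPKM + 1) and on log2(FPKM + 0.1), and leaving out each library. On log2(FPKM + 1) the pseudocount makes the fold changes of low genes smaller. A fit without treatment terms was a further alternative for passage only. The last alternative, chosen after seeing the data, summed Psme2 and Psme2b into 1 row.

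The members and the lists were chosen with earlier results of these data known. Named were the 10 class I genes, for each list the 4 or fewer genes of lowest adjusted p at P6 against P1, the regulators Nlrc5, Irf1 and Ciita (a further one is not reported here), Psmb10, Lyz2, Csf1r and Ptprc, and the 5 genes nearest in profile. Of the listed genes, 2 (H2-T9 and Nrdc) did not match a symbol. Promoter sequences are from RefSeq (GRCm38.p6), with an entry for 9 of the 10 genes, and shared 50-base windows were counted in GENCODE transcripts.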

Additional observations from a re-analysis of the deposited data

Results flagged for a closer look

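In 4 comparisons of single libraries a class I gene moved in opposite directions at P6 and P1, by a log2 ratio of at least 0.1 at each, a minimum set after the values were seen. Tap1 with α-amyrin over vehicle was at -0.10 at P6 and 0.30 at P1. With α-amyrin over β-amyrin it was at -0.12 at P6 and 0.40 at P1. H2-D1 with β-amyrin over vehicle was at 0.17 at P6 and -0.44 at P1. With α-amyrin over β-amyrin it was at -0.19 at P6 and 0.61 at P1. None of these differences between passages was tested, because each rests on 1 library per condition.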

How the results depend on the processing

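Under all 14 alternatives for passage, 8 of the 10 class I genes rose or, where the P6 or P1 vehicle library was left out, 7, since Tap1 then lost its call. None fell in any. The log2 fold change ran from 2.20 to 2.61 for H2-D1, from 1.51 to 1.66 for H2-K1 and from 0.75 to 0.79 for B2m. It was smallest on log2(FPKM + 1) for Psmb8 (1.15) and Psmb9 (0.49), whose low values the pseudocount compresses. On log2(FPKM + 0.1) Psmb9 was at 1.44, its highest value. The compound comparisons were less stable. With α-amyrin against vehicle 1 class I gene, Psme2, was called higher with no filter and by DESeq2, and 0 to 1 were called when each library was left out. With β-amyrin against vehicle 1 was called higher and 1 lower with no filter and by DESeq2, and leaving out libraries gave 0 to 1 higher and 0 to 2 lower. With α-amyrin against β-amyrin 1 was called higher with no filter, and leaving out libraries gave 0 to 2. With no filter edgeR called 464, 404 and 484 genes in these 3 comparisons, against 5, 1 and 10 with the filter, and DESeq2 called 194, 114 and 119. The cause was not tested. The passage by amyrin term called 0 class I genes under every alternative that gave a value, 159 of all genes with no filter and 21 with DESeq2; it could not be fitted without a vehicle library. No class I gene changed sign where it was called in the test as reported or under an alternative. The median over the 10 genes did change sign with α-amyrin against vehicle (-0.0092 to 0.32 when each library was left out), with β-amyrin against vehicle (-0.16 to 0.03) and for the passage by amyrin term (-0.13 to 0.12). With α-amyrin against β-amyrin it ran from 0.12 to 0.39. Summed with Psme2b, the uncalled Psme2 changed sign for passage (-0.02) and for α-amyrin against β-amyrin (0.13). No paired analysis was possible because the labels give no replicate numbers and each condition has 1 library.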

Other observations

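Interferon-induced GTPases and chemokines were higher with α-amyrin than with β-amyrin at P1 in all 10 genes tested, with a median log2 ratio of 0.07 at P6 and 0.89 at P1 between single libraries. Among all 16962 genes tested, 8598 were higher with α-amyrin than with β-amyrin at P1 and 8354 were lower. Gbp2, a guanylate-binding protein, had 6.05 CPM with α-amyrin and 4.42 CPM with β-amyrin at P6, against 9.89 and 4.30 CPM at P1. Iigp1, an immunity-related GTPase, had 1.06 CPM with α-amyrin and 0.955 CPM with β-amyrin at P6, against 3.67 and 1.01 CPM at P1. Both genes are named after their values were seen. In the edgeR fit over both passages 0 of the 10 were called and 5 had an unadjusted p below 0.05. DESeq2 called 0. Macrophage markers also differed between these libraries, with a median log2 ratio of α-amyrin over β-amyrin of 0.64 at P6 and 3.57 at P1, and their part in the difference was not tested.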
